A study of Mus musculus with 9 samples.

Results

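Dhh, Pou3f1, Ngfr, Pmp22, Foxd3 and Tfap2a are marker genes of Schwann cells, the glia of peripheral nerves, and of the neural crest, the embryonic population from which those cells come. They are described here in cultured mouse stem cells of the central nervous system, and were taken as every probe set whose platform annotation gives 1 of these 6 symbols. This gave 12 of 45037 probe sets that are no controls and 6 of 18193 genes. Each gene is represented by its brightest probe set, and the other probe sets are given beside it.

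RNA of 9 samples of cultured cells was measured on Affymetrix mouse arrays, 3 arrays in each of 3 groups. All mice were of the C57BL/6 strain, and all cells were grown in low-attachment dishes with FGF and EGF at 20 ng/ml each. Control NSC, labelled wild type in the design, are neural stem cells of the third ventricle from Nf1flox/flox pups at postnatal day 1, transduced with a LacZ control virus, so they carry the floxed alleles and a virus too. Nf1-/- NSC are such cells transduced with Cre virus instead. Glioma stem cells (GSC) were grown from optic gliomas in the optic nerve of mice aged 3 months with the genotype labelled Nf1+/-GFAP CKO, and their labels name no virus. They therefore differ from both NSC groups in genotype, tissue, age and labelled virus together, and the parts of these cannot be told apart. The design text gives independent cultures for the NSC alone and is silent on the GSC, so p-values measure the spread between these samples, which may in part be technical.

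Schwann cell precursors leave the neural crest under control of transcription factors such as Sox10, Foxd3 and Tfap2a. They then pass through an immature stage marked by Ngfr, and a promyelinating stage marked by Pou3f1, before they make myelin, of which Pmp22 is a membrane protein. Dhh is the hedgehog ligand that Schwann cells send to the sheath of the nerve. Several of these genes are also used in the central nervous system, where Pou3f1 is a factor of neural progenitors and Ngfr and Pmp22 occur in other cell types.

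The sequences before the starts of Dhh and Pmp22 are shown because these genes, with Pou3f1, hold the larger differences between groups among the 6. They come from the RefSeq promoter table on GRCm38.p6 and run 5′ to 3′ on the strand of the gene, with capitals marking CpG. Dhh lies on chromosome 15 from 98881615 to 98898562 on the minus strand, and 228 bases before its start are chr15:98898563-98898790. Pmp22 lies on chromosome 11 from 63128982 to 63159547 on the plus strand, and 250 bases before its first annotated start are chr11:63128732-63128981. Pou3f1, on chromosome 4 from 124657646 to 124660655, is named without sequence.
Dhh: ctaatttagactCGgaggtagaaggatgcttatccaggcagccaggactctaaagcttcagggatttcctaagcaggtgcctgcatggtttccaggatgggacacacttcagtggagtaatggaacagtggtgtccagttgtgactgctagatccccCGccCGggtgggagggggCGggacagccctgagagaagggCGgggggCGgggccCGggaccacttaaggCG
Pmp22: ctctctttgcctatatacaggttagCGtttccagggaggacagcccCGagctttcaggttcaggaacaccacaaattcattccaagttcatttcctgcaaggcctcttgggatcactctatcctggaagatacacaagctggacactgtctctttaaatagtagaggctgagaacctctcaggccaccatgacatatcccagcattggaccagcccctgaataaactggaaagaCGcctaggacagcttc
The stretch before Dhh holds 8 CpG and that before Pmp22 holds 3. In windows of 300 bases around the starts, Dhh had 12 CpG, more than 60.4% of all windows in the table. The 4 windows of Pmp22 had 3, 18, 20 and 30 CpG from the first start on, more than 23.3%, 70.3%, 73.5% and 88.3% of windows, so the stretch shown is the one with the fewest.

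Tfap2a encodes AP-2 alpha, a factor that binds the palindrome GCCNNNGGC. That motif was found in 2 of the 4 windows at annotated starts of Pmp22 and in no window of the other members in the table, against 16.6% of 32851 windows. The 3 matches lie inside the annotated gene, downstream of the first start, and are shown with 25 bases each, capitals marking the motif. Their places are chr11:63132399-63132423, chr11:63132637-63132661 and chr11:63132756-63132780 on the plus strand.
Pmp22 site 1: gggataggGCCCCTGGCgcatctat
Pmp22 site 2: taggccgaGCCGGGGGCggggcggc
Pmp22 site 3: gaccccagGCCTCTGGCtgtgagcc
The octamer ATGCAAAT of POU factors, which 1.74% of windows hold, the SOX motif ACAAAG, which 18.7% hold, and the GLI motif GACCACCCA, which 0.253% hold, had no match in the 9 windows of the members. Both strands were searched, the motifs do not overlap one another in these windows, and a match describes letters and is no measured binding site.

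Signals are on a linear scale on which the mean of every array, trimmed by 2% of probe sets at each end, was 1500. Array medians lay between 264.7 and 287.4 and ratios of 3′ to 5′ Gapdh signal between 0.93 and 1.14. As a measure of background, 43 probe sets of olfactory receptors, genes these cells would not be thought to use and a set chosen after values were seen, had array medians of 45.9 to 65.9 and 95th percentiles of 125.8 to 202.85. Nf1, the targeted gene, had signals of 1139.5, 919.5 and 999.9 in control NSC, 430.3, 645.8 and 577 in Nf1-/- NSC and 622.6, 600.1 and 548.9 in GSC. It was lower on every array of the last 2 groups, by 0.90 (SE 0.19) on the log2 scale in Nf1-/- NSC with adjusted p = 0.123, and by 0.78 (SE 0.19) in GSC with adjusted p = 0.0441. Differences between groups are of mean log2(signal + 1), and limma's adjusted p was called below 0.05 after Benjamini-Hochberg adjustment over all genes.

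Between the 2 NSC groups, 0 of the 6 members passed the test, as did 0% of all genes. Between GSC and control NSC, Dhh and Pou3f1 rose and the other 4 members did not pass, beside 9.06% of all genes called. Between GSC and Nf1-/- NSC, 0 of 6 passed, beside 1.75%. At an unadjusted p under 0.05 the 3 comparisons held 2, 3 and 0 members and 3048, 4781 and 2995 of all genes. The median difference of the 6 members was 0.57, 1.12 and 0.27 in that order of comparisons, beside -0.063, -0.089 and -0.036 over all genes. Between GSC and control NSC the members differed by 2.34 (Dhh), 2.08 (Pmp22), 1.68 (Pou3f1), 0.57 (Ngfr), -0.15 (Foxd3) and -0.59 (Tfap2a). The median there stands for no single member and is no shift of the whole set. The first 2 comparisons share the control arrays and the last 2 share the GSC arrays, so their values are not independent of one another.

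**Figure D1:**
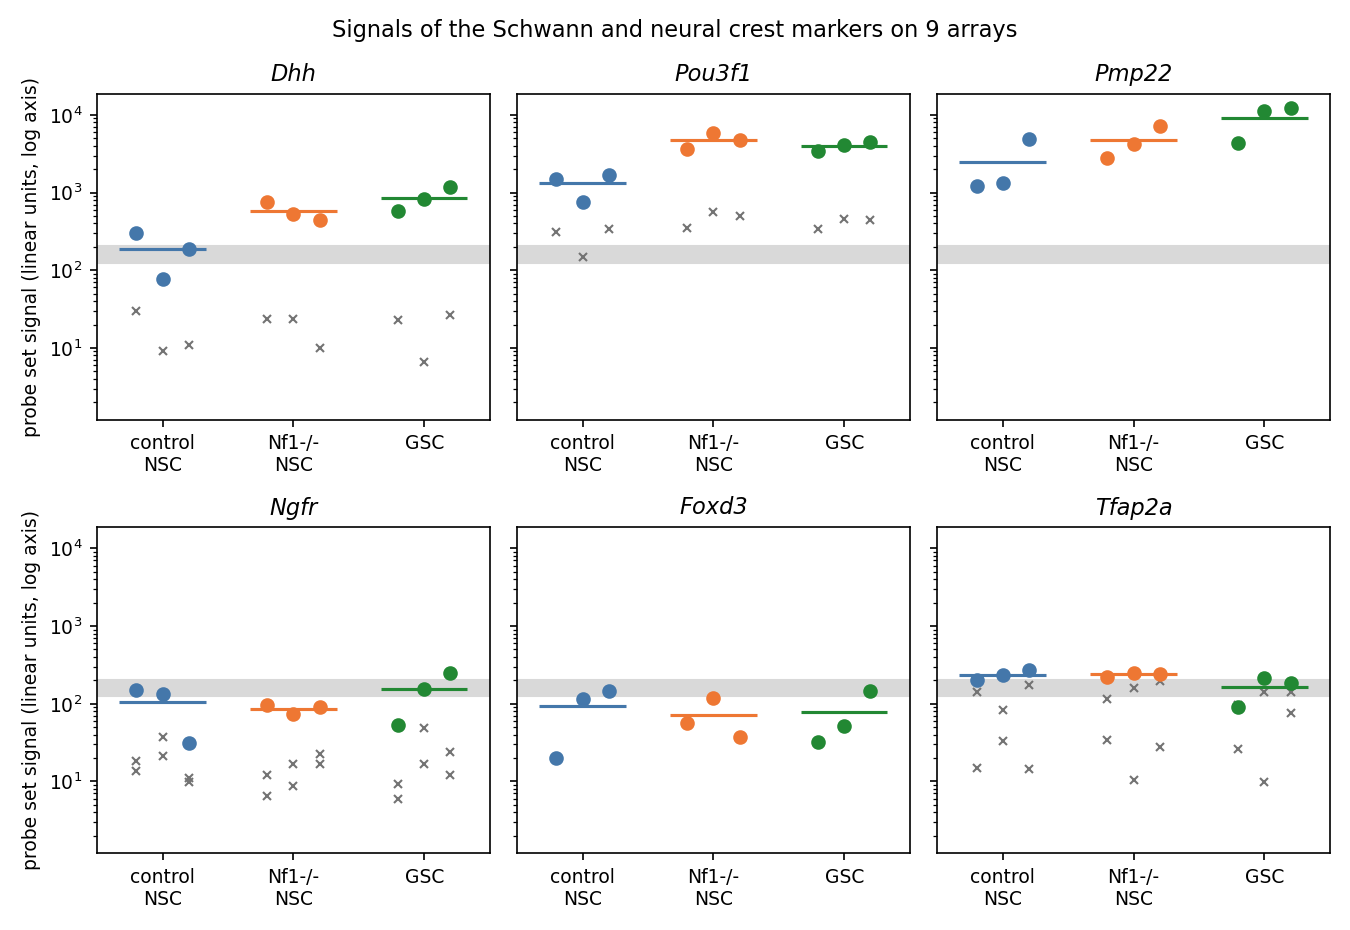
Signals of the 6 members on each of 9 arrays, in linear units on a log axis, by group (control NSC, Nf1-/- NSC, GSC). Filled points are the brightest probe set, crosses the other probe sets, bars the group means, and the grey band the range over arrays of the 95th percentile of olfactory receptor probe sets (125.8 to 202.85). Dhh and Pou3f1 are higher on every Nf1-/- and GSC array than on any control array, whereas Ngfr, Foxd3 and Tfap2a lie in, near or below the band.

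Dhh rose 5.05-fold in GSC over control NSC. Its signals were 300.2, 76.4 and 186.5 in control NSC, a mean of 188 ± 112 (SD, n = 3). They were 761.3, 534.9 and 446.4 in Nf1-/- NSC, a mean of 581 ± 162, and 572.1, 832.6 and 1178.8 in GSC, a mean of 861 ± 304. Every Nf1-/- and every GSC array lay above every control array, while the Nf1-/- and GSC groups overlapped. The control arrays lay at or near background, since 41.9% of olfactory receptor probe sets were at least as bright as Dhh on array 2 and 6.98% on array 3, and none on array 1. The fold is thus taken over a level close to background.

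On the log2 scale Dhh was higher in GSC than in control NSC by 2.34 (SE 0.51, 95% interval 1.15 to 3.53) with adjusted p = 0.0339. Nf1-/- NSC were above control NSC by 1.80 (SE 0.51, 0.61 to 2.98), with adjusted p = 0.179. GSC and Nf1-/- NSC, the neighbours in the order of levels, differed by 0.54 (-0.65 to 1.73) with adjusted p = 0.654, so their levels did not differ beyond their spread. The other probe set of Dhh had signals of 6.5 to 29.5 on all 9 arrays, in the range of background, and carries no information on these differences. The call for GSC was lost in 9 of 22 alternatives, among them the mean of both probe sets (1.24, adjusted p = 0.194), only the 6 arrays compared (adjusted p = 0.0728), an ordinary test (0.0587), and the fits without control array 2 (1.80, adjusted p = 0.0796), control array 3 (0.0791), Nf1-/- array 1 (0.0501), GSC array 2 (0.109) or GSC array 3 (0.109). Over all alternatives the adjusted p ran from 0.00860 to 0.194, and the difference stayed above 0.

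Pou3f1, also called Oct6, the POU factor of promyelinating Schwann cells, rose 3.20-fold in GSC over control NSC. Its signals were 1516.7, 757.4 and 1668.1 in control NSC, a mean of 1314 ± 488 (SD, n = 3). They were 3593.5, 5903.9 and 4755.6 in Nf1-/- NSC, a mean of 4751 ± 1155, and 3432.2, 4044.8 and 4517.2 in GSC, a mean of 3998 ± 544. The highest control array lay below the lowest array of either other group, and all 9 arrays were above every olfactory receptor probe set. Nf1-/- NSC had the highest mean, with GSC inside its range apart from array 1.

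The log2 difference of Pou3f1 between GSC and control NSC was 1.68 (SE 0.33, 0.90 to 2.45) with adjusted p = 0.0279. Nf1-/- NSC were 1.91 (SE 0.33, 1.13 to 2.68) above control NSC, 3.75-fold, with adjusted p = 0.0900. With a trend of variance on level that comparison passed (adjusted p = 0.0248) in a fit that called 1.81% of all genes, and its adjusted p ran from 0.0152 to 0.246 over the alternatives. GSC and Nf1-/- NSC differed by -0.23 (-1.0 to 0.55) with adjusted p = 0.788, and these neighbours did not differ beyond their spread. The call for GSC was lost with the mean of both probe sets (1.19, adjusted p = 0.0852), with only the 6 arrays (0.0542), and without control array 2 (1.32, adjusted p = 0.0656), control array 3 (0.0503), GSC array 2 (0.0957) or GSC array 3 (0.0913).

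The other probe set of Pou3f1 moved less. It read 308.1, 147.9 and 343.6 in control NSC, 347.4, 570.7 and 503.6 in Nf1-/- NSC and 340.6, 451.7 and 443.5 in GSC. The NSC groups again did not overlap, by a small gap, whereas GSC array 1 fell below control array 3. Neither difference passed on this probe set, at 0.89 (SE 0.36) with adjusted p = 0.332 for Nf1-/- NSC and 0.71 with adjusted p = 0.292 for GSC. When each probe set was fitted on its own, 2 of the 12 passed between GSC and control NSC, those already given for Dhh (adjusted p = 0.0470) and Pou3f1 (0.0393), and 0 of 12 in the other comparisons.

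Dhh and Pou3f1 were the 2 of 6 members that lay higher without overlap in Nf1-/- than in control NSC, as 9.75% of all genes did. They were also the 2 of 6 that did so in GSC against control NSC, where 13.9% of all genes did. No member lay higher without overlap in GSC than in Nf1-/- NSC, where 9.24% of genes did, and 1 lay lower, where 12.7% did. Within same-numbered NSC pairs, Dhh was higher in the Nf1-/- array by 1.34, 2.79 and 1.25 on the log2 scale and Pou3f1 by 1.24, 2.96 and 1.51. Control array 2, the dimmest of its group for both genes, gave the larger value in each case. The ratio of 3′ to 5′ Actb signal also set control arrays apart, at 1.87 to 1.88, from Nf1-/- arrays at 1.49 to 1.67 and GSC arrays at 1.73 to 1.85, and its part in these results was not tested. In RNA of whole cultures, fewer cells that make a transcript and less transcript per cell cannot be told apart.

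Pmp22, a membrane protein of compact myelin, had its highest signals in GSC but did not pass the test. It read 1214, 1319.2 and 4967.8 in control NSC, a mean of 2500 ± 2138 (SD, n = 3). It read 2747.7, 4197.7 and 7112.8 in Nf1-/- NSC, a mean of 4686 ± 2223, and 4380.5, 11229 and 12151.6 in GSC, a mean of 9254 ± 4245. All 3 groups overlapped, since control array 3 was above Nf1-/- arrays 1 and 2 and above GSC array 1, which in turn was below Nf1-/- array 3.

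Pmp22 was above control NSC by 2.08 (SE 0.66, 0.53 to 3.62) in GSC, with adjusted p = 0.0951, and by 1.12 (-0.42 to 2.67) in Nf1-/- NSC, with adjusted p = 0.439. GSC were above Nf1-/- NSC by 0.95 (-0.59 to 2.5) with adjusted p = 0.531, so no neighbours in the order of levels differed beyond their spread. With a trend of variance on level, Pmp22 passed between GSC and control NSC (adjusted p = 0.0376), so that 3 of 6 members did, in a fit that called 14.7% of all genes. Its adjusted p in that comparison ran from 0.00223 to 0.253 over 24 alternatives, of which 7 called it. Among these were array weights (0.0238) and only the brighter 50% of genes (0.0345), a filter that leaves out Dhh. Within same-numbered NSC pairs, Nf1-/- arrays were higher by 1.18, 1.67 and 0.52, which is the same direction in 3 of 3.

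On the NSC arrays numbered 3, Pmp22 was highest in each group and Xist, the RNA of the inactive X chromosome, was lowest, at 587.7 and 385.6 against 30974.5 to 56641 on the other NSC arrays. The GSC arrays had Xist signals of 39079.7 to 50410.8. No GSC array had Xist as low as the NSC arrays numbered 3. The sexes may thus be mixed otherwise in GSC than in NSC, and the part of sex in the differences between groups was not tested. Signals of S100b, a protein of Schwann cells and of other glia, were 4451.4, 6913.8 and 11308.3 in control NSC, 3070.8, 3884.3 and 10179.4 in Nf1-/- NSC and 17467.7, 34245.9 and 33524.6 in GSC. The arrays numbered 3 were thus the brightest NSC arrays for S100b as well. Mbp, myelin basic protein, read 2008.8, 495.4 and 6599.4 in control NSC and 376.5, 189.2 and 297.4 in Nf1-/- NSC. Array 3 was thus its brightest in control NSC alone, and Mbp was lower on every Nf1-/- array than on any control array, unlike Pmp22. In GSC it read 2601.3 on array 1 and 29057.3 and 65239.2 on arrays 2 and 3. GSC array 1 was the lowest of its group for Pmp22, S100b and Mbp alike. The part of Xist, S100b and Mbp in the Pmp22 values was not tested.

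Ngfr and Foxd3 were within background in most samples, Tfap2a lay near its upper end, and no difference of the 3 genes passed the test. Ngfr, the p75 neurotrophin receptor, read 149.2, 135.2 and 31.1 in control NSC, 96.3, 73.3 and 89.7 in Nf1-/- NSC and 53.9, 154.6 and 250.4 in GSC. Foxd3, a forkhead factor of the early crest, read 20.3, 114.4 and 144.5, then 57.3, 118.3 and 37.3, then 32.2, 51.7 and 147.8 in the same order. Tfap2a, the factor of crest induction named above, read 203.9, 231.9 and 268.8, then 218.1, 251.8 and 244.9, then 90.7, 217.5 and 187.1. The groups of Ngfr and of Foxd3 overlapped, and 4.65% to 60.5% of olfactory receptor probe sets were at least as bright as Ngfr on all arrays but GSC array 3, where none were. For Foxd3 that share was 2.33% to 69.8%, and for Tfap2a 0% to 4.65% on all arrays but GSC array 1, at 32.6%. GSC arrays of Tfap2a lay below those of Nf1-/- NSC without overlap, but the gap was between 217.5 and 218.1.

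The difference of Ngfr between GSC and control NSC was 0.57 (-1.10 to 2.24) with adjusted p = 0.668. That between Nf1-/- and control NSC was 0.00 (-1.67 to 1.66) with adjusted p = 1.00. Intervals this wide leave room for a change of more than 2-fold either way. Foxd3 differed by -0.14 in Nf1-/- NSC and -0.15 in GSC from control NSC, with adjusted p = 0.955 and 0.936. Tfap2a differed by 0.03 in Nf1-/- NSC (adjusted p = 0.978) and by -0.59 in GSC (adjusted p = 0.284) from control NSC, and by -0.62 between the last 2 groups (adjusted p = 0.390). The other probe sets were dimmer still, at 5.9 to 49.3 and 8.8 to 23.7 for Ngfr and 82.4 to 195.6 and 9.8 to 76.4 for Tfap2a, while Foxd3 and Pmp22 have 1 probe set each.

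**Figure D2:**
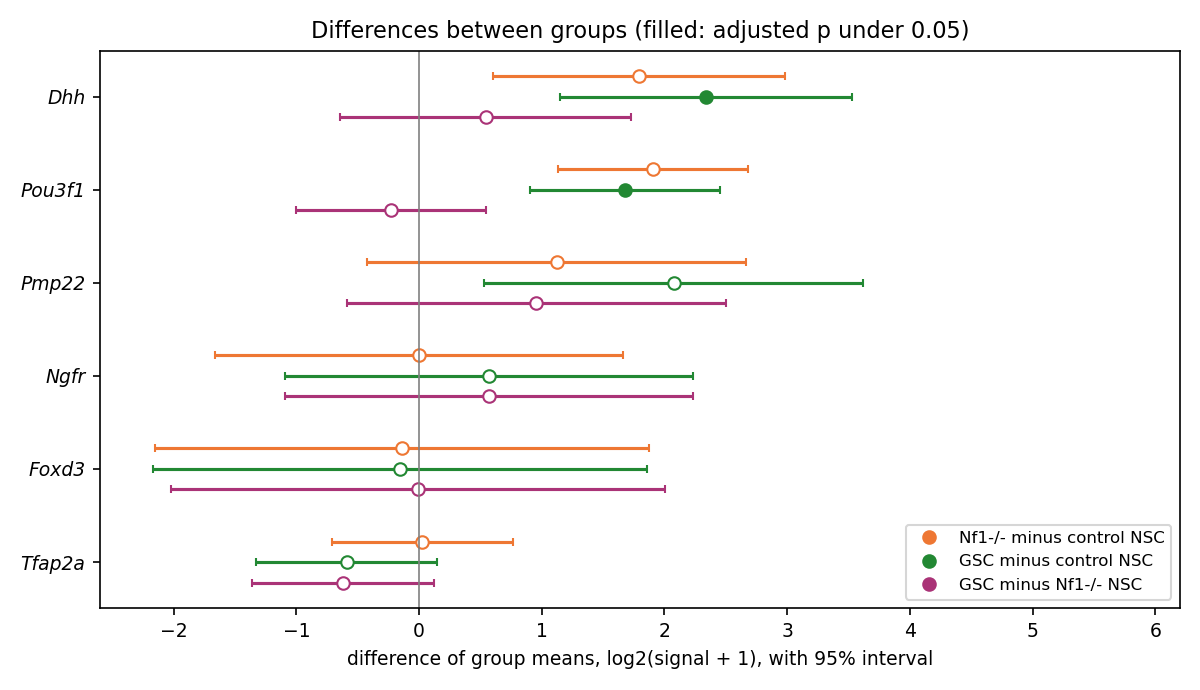
Differences of group means of log2(signal + 1) for the 6 members, with 95% intervals, in the 3 comparisons. Filled points passed an adjusted p of 0.05, which only Dhh (2.34) and Pou3f1 (1.68) in GSC against control NSC did in this fit, and the intervals of Ngfr and Foxd3 span 0 widely in every comparison.

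The label of the set was checked against other genes of the Schwann lineage. Of 20 listed, 16 were measured and the others were not analysed here. Between GSC and control NSC, Cdh19 and Adgrg6 rose, Ncam1 fell and 13 did not pass, with a median difference of 0.34 over the list. For this list and those that follow, the share of all genes called in that comparison was 9.06%. Sox10, the factor on which the whole lineage depends and which oligodendrocyte cells share, had its highest mean in control NSC, where Dhh and Pou3f1 had their lowest. It read 3479.2, 2511.4 and 1352 in control NSC, 929.4, 262.8 and 1037.1 in Nf1-/- NSC and 741.4, 2176 and 2085 in GSC.

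Sox10 was lower in Nf1-/- than in control NSC on every array, by 1.85 (SE 0.67) on the log2 scale, without passing (adjusted p = 0.231). In GSC it differed from control NSC by -0.60, with adjusted p = 0.620. Erbb3, the receptor through which Schwann cell precursors read neuregulin, read 367.8, 246.6 and 437 in control NSC, 224.8, 191.9 and 257 in Nf1-/- NSC and 224.3, 484.2 and 621.3 in GSC. Its groups overlapped, and it differed by 0.26 between GSC and control NSC (adjusted p = 0.732). Egr2, the factor that follows Pou3f1 in the myelin programme, read 794.8, 2547 and 877 in control NSC, 1626, 3772 and 2126.9 in Nf1-/- NSC and 1450.5, 868.6 and 395.2 in GSC. It lay lower in GSC than in Nf1-/- NSC without overlap, by -1.57 with adjusted p = 0.270. Since 3 lineage genes passed in GSC, in both directions, and the labels name no Schwann cells, the 6 members are described as single genes and not as a mark of that cell type.

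Cdh19, a cadherin of Schwann cell precursors, rose 7.29-fold in GSC over control NSC. It read 786.3, 639.4 and 1972.5 in control NSC, 1654.9, 2033.8 and 2771.5 in Nf1-/- NSC and 7181.4, 7192.4 and 7454.9 in GSC. The GSC arrays lay close together and above all others, and the difference was 2.87 (SE 0.41) with adjusted p = 0.0131. Its call was lost in 2 of 24 alternatives, without GSC array 2 or 3 (highest adjusted p = 0.0552).

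Adgrg6, the adhesion receptor Gpr126 that myelinating Schwann cells need, rose 2.87-fold. It read 1185.1, 1527.7 and 2467.8 in control NSC, 2816.8, 3274 and 2401 in Nf1-/- NSC and 4934.7, 4979.1 and 4305 in GSC. GSC arrays again lay above all others, by 1.52 (SE 0.27) over control NSC with adjusted p = 0.0225. Its call was lost without control array 2 or GSC array 2 or 3, at an adjusted p of up to 0.0838. Ncam1, a cell adhesion molecule of immature Schwann cells and of neurons, fell 1.77-fold (adjusted p = 0.0363), a call lost in 11 of 24 alternatives, among them leaving out any control array, Nf1-/- array 1 or 3 or GSC array 2 or 3.

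Of 18 neural crest factors, 17 were measured and the other was not analysed here. Lmo4, a LIM-domain cofactor, rose 1.78-fold in GSC over control NSC (adjusted p = 0.0495) and Sox9, a factor of crest and of astrocytes, fell 2.59-fold (adjusted p = 0.0459), with 15 not passing and a median difference of -0.02. Lmo4 read 7112.1, 5282.6 and 6048.8 in control NSC, 12920.2, 20004 and 14228.4 in Nf1-/- NSC and 10949.9, 11799.7 and 9967.2 in GSC, so that, as for Pou3f1, the Nf1-/- mean was the highest. Both calls lay close to the threshold and were lost in 13 and 12 of 24 alternatives, among them leaving out any control array, Nf1-/- array 1 or 3 or GSC array 2 or 3, also without GSC array 1 for Lmo4 and without Nf1-/- array 2 for Sox9.

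**Figure D3:**
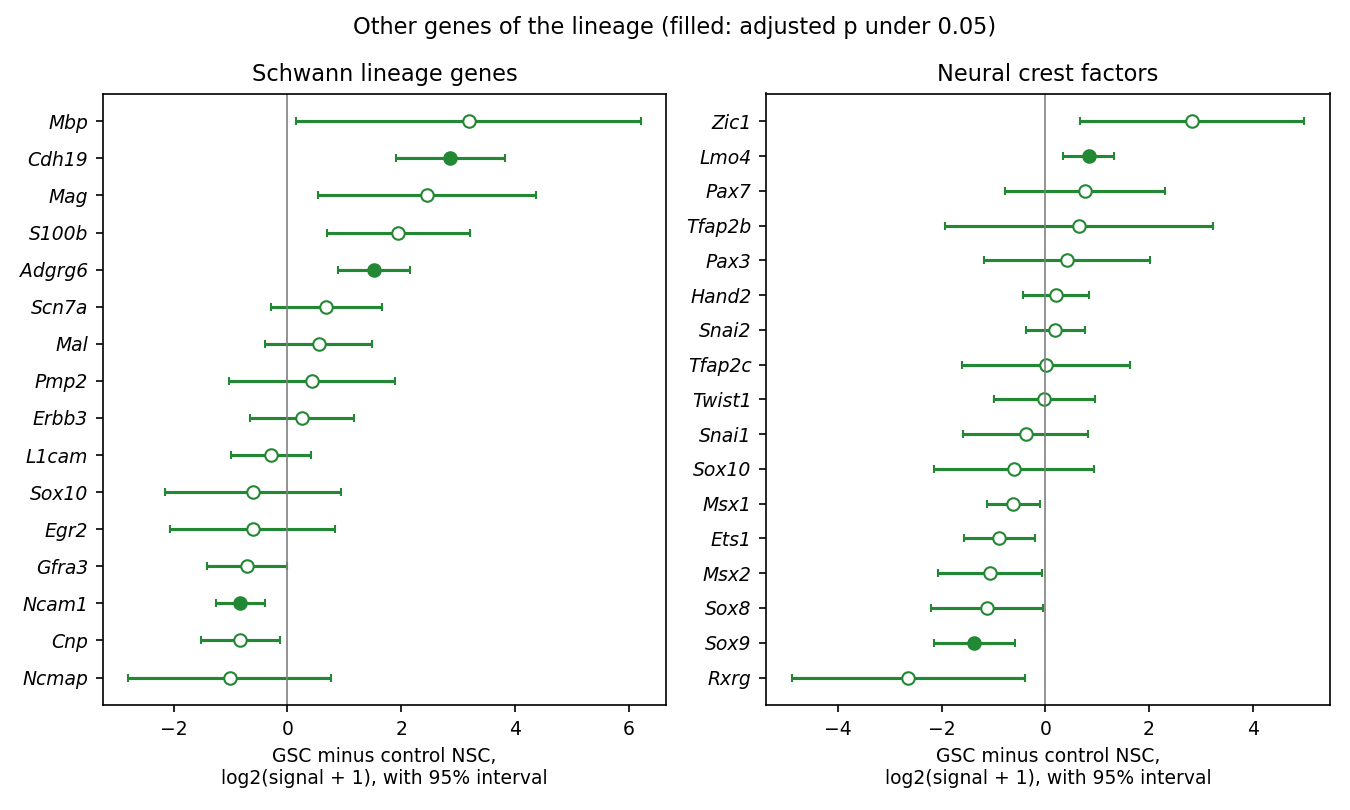
Differences of mean log2(signal + 1) between GSC and control NSC, with 95% intervals, for 16 Schwann lineage genes and 17 neural crest factors (Sox10 is in both). Filled points passed an adjusted p of 0.05: Cdh19 (2.87) and Adgrg6 (1.52) above 0 and Ncam1 (-0.82) below it in the left panel, and Lmo4 (0.83) above and Sox9 (-1.38) below it in the right panel.

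Hedgehog ligands such as Dhh bind Ptch1, which frees Smo and turns on Gli factors, and Ptch1 and Gli1 are themselves targets of the pathway. Of 15 genes of the pathway other than Dhh, 14 were measured and the other was not analysed here. While Dhh rose in GSC over control NSC, Gli1 and Gli2 fell, Gas1 rose and 11 did not pass, with a median difference of -0.43. Gli1, a target and effector, read 156.9, 177.3 and 156.3 in control NSC, 158, 128.5 and 74.2 in Nf1-/- NSC and 62.9, 12.1 and 34.3 in GSC. GSC arrays lay below all others, though all 9 signals were below 202.85, the highest 95th percentile of olfactory receptor probe sets, and the difference was -2.41 (SE 0.55) with adjusted p = 0.0379.

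Gli2, the main activator, read 1194.7, 939 and 1504.9 in control NSC, 826.3, 838.5 and 980.3 in Nf1-/- NSC and 528.8, 255.6 and 308 in GSC. It fell 3.43-fold in GSC (adjusted p = 0.0194), below all other arrays. Ptch1, the receptor, read 17938.4, 23531.3 and 19577.8 in control NSC, 11133, 8582 and 16087.6 in Nf1-/- NSC and 14079.5, 6959.7 and 5895.7 in GSC. Every array of the last 2 groups lay below every control array, by -0.81 (adjusted p = 0.321) and -1.28 (adjusted p = 0.0713) on the log2 scale, so neither passed.

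Gas1, a coreceptor that binds hedgehog ligands, read 11364.2, 10251.6 and 8129.7 in control NSC, 11927.4, 20304.7 and 15337.2 in Nf1-/- NSC and 19076.8, 17899.3 and 19504.3 in GSC. It rose 1.92-fold in GSC (adjusted p = 0.0441), and both other groups lay above control NSC on every array. The ligands Shh and Ihh differed by -0.50 and -0.55 between GSC and control NSC, with adjusted p = 0.363 and 0.284. The calls of Gas1 and Gli1 were each lost in 11 alternatives, leaving out any control array or GSC array 2 or 3 among them, also Nf1-/- array 3 or GSC array 1 for Gas1 and Nf1-/- array 1 or 2 for Gli1. That of Gli2 was lost only without control array 2 or 3 or GSC array 2 or 3, at an adjusted p of up to 0.0704.

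**Figure D4:**
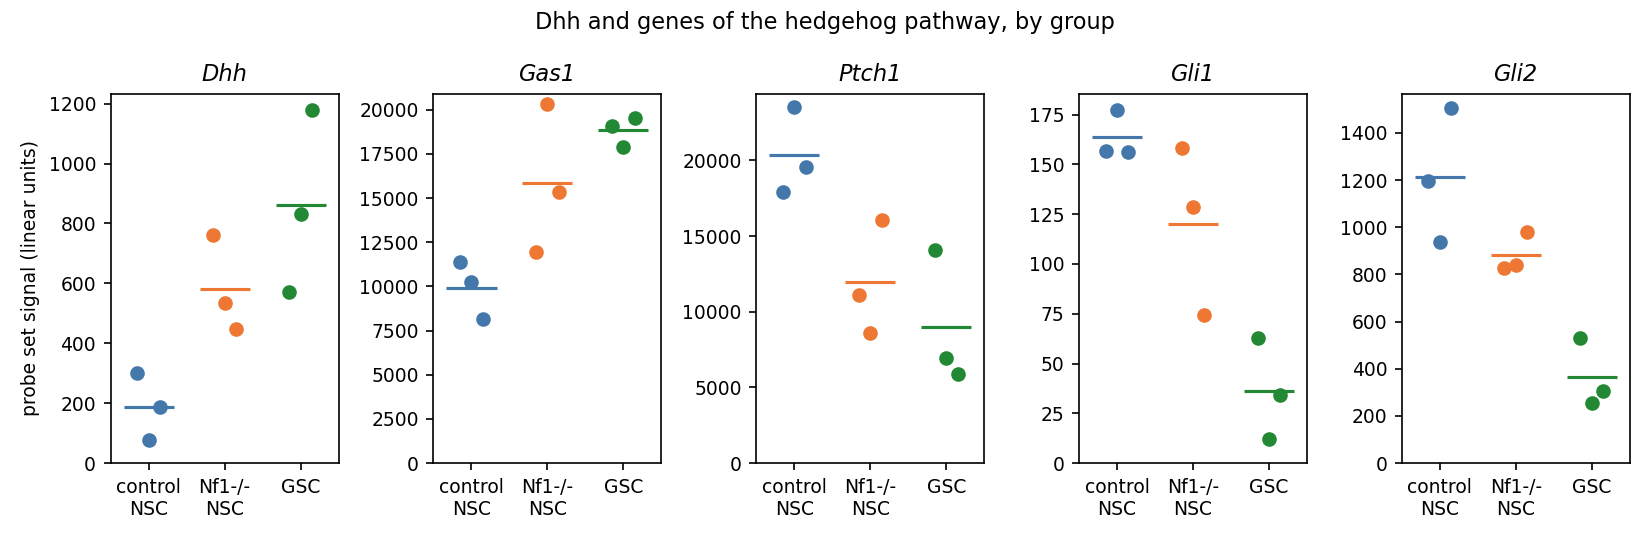
Signals of Dhh, Gas1, Ptch1, Gli1 and Gli2 on each of 9 arrays, in linear units with each axis starting at 0, by group; points are arrays and bars group means. Dhh is higher and Ptch1 lower on every Nf1-/- and GSC array than on any control array, and Gli2 is lowest in GSC (255.6 to 528.8).

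Ngfr acts beside the Trk receptors of neurotrophins and with sortilins and Lingo1. Of 15 such genes 12 were measured and the rest were not analysed here. Ntrk2 and Lingo1 fell in GSC against control NSC and 10 did not pass, with a median difference of -0.30. Ntrk2, the receptor of Bdnf, read 31813.9, 45590.2 and 36455.9 in control NSC, 18139.8, 10735 and 24897.4 in Nf1-/- NSC and 7658.3, 5580.7 and 5080.1 in GSC. The groups followed one another without overlap, and the fall in GSC was 6.24-fold, with a difference of -2.64 (SE 0.33) and adjusted p = 0.00961.

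Ntrk2 kept its call in all 24 alternatives, with a difference from -2.82 to -1.76, the smallest with the mean of all probe sets. Against Nf1-/- NSC it was lower by 1.49 on the log2 scale in GSC, with adjusted p = 0.0809. Lingo1, a coreceptor of Ngfr on neurons and glia, read 1041, 1168.9 and 943.6 in control NSC and 591.9, 328.7 and 358.4 in GSC, with Nf1-/- NSC at 552.8, 447.9 and 909.2. Its fall of 2.54-fold (adjusted p = 0.0427) was lost in 12 of 24 alternatives, among them leaving out any control array, Nf1-/- array 1 or GSC array 2 or 3.

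Family relatives of the members were compared in the same way, 13 of 13 being measured. Emp1, a relative of Pmp22, fell in GSC and the other 12 did not pass, with a median difference of -0.07. Emp1 read 5206.6, 2159.7 and 508.3 in control NSC, 2629.1, 1271.9 and 420.1 in Nf1-/- NSC and 91.2, 164.7 and 83.5 in GSC. All 3 GSC signals were below 202.85, the upper end of background given above. The fitted difference was -4.04 (adjusted p = 0.0392), and it ran from -4.95 to -2.31 over the alternatives, the smallest with the mean of all probe sets. Pmp22 was higher by 2.08 in the same comparison without passing, and within NSC the arrays numbered 3 were the lowest for Emp1 and the highest for Pmp22. The call of Emp1 was lost in 9 of 22 alternatives, among them leaving out control array 1 or 2, Nf1-/- array 2 or any GSC array.

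Pou3f2 and Pou3f3, the POU factors of neural progenitors closest to Pou3f1, did not pass the test in any comparison. Pou3f2 read 858.9, 1034.2 and 1384.2 in control NSC, 1065.5, 647.8 and 1036.2 in Nf1-/- NSC and 851.8, 491.5 and 293.1 in GSC, where it was lower by 1.11 (adjusted p = 0.134). Pou3f3 read 17911.6, 19189.5 and 16638.3, then 16196.2, 24358 and 18679.3, then 18906.9, 20862.3 and 17326.7, and differed by 0.12 (-0.31 to 0.55) and 0.09 (-0.35 to 0.52) from control NSC. The groups of Pou3f3 overlapped throughout. In the 2 other comparisons limma called 0 genes of the Schwann, crest, neurotrophin, hedgehog and relatives' lists. At an unadjusted p under 0.05 these lists, in that order, held 3, 2, 2, 3 and 1 genes between the NSC groups. Between GSC and Nf1-/- NSC they held 7, 4, 5, 2 and 3. The lists have 16, 17, 12, 14 and 13 measured genes. Of all 18193 genes, 3048 and 2995 lay under that p in the 2 comparisons.

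No listed marker of fibroblasts, pericytes, melanocytes, endothelium, microglia or blood passed the test as higher in any comparison. Summed signals of 7 fibroblast and pericyte markers, among them Col1a1 and Dcn, ran from 570.5 to 612.7 in control NSC, 561.3 to 732.4 in Nf1-/- NSC and 463.1 to 848.7 in GSC, and 0 of 7 passed. Those of 7 melanocyte markers ran from 1935.9 to 2624.4, 1161.2 to 1913.7 and 1918.5 to 2309.7, and Pmel fell in GSC against control NSC (adjusted p = 0.0366). Endothelial markers, 6 in number, ran from 567.3 to 815.8, 679.5 to 960.9 and 319.6 to 591.7, with Emcn lower in GSC (adjusted p = 0.0358 against control NSC) though below 202.85 on all 9 arrays, and 5 markers of microglia and blood from 512 to 641, 348.6 to 422.5 and 482.3 to 604.9. No marker was listed at 0. Of the melanocyte markers, Mitf was higher on every GSC array than on any NSC array, without passing. Its difference was 0.81 from control NSC (adjusted p = 0.127) and 1.14 from Nf1-/- NSC (adjusted p = 0.113). It was the 1 of 7 higher without overlap in GSC than in control NSC, near the share of 13.9% of all genes. Of the 7, 4 were lower without overlap, beside 3803 of all 18193 genes.

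Astrocyte markers fell in GSC. The summed signal of 6 astrocyte markers was 167985 to 208752 in control NSC, 90790.6 to 136300 in Nf1-/- NSC and 40665.4 to 56426.4 in GSC, where Aldh1l1, Aqp4, Gja1 and Slc1a3, 4 of the 6, fell against control NSC. That of 7 oligodendrocyte lineage markers was 102800 to 115085, 85351.6 to 103253 and 114718 to 130871, and 0 of 7 passed. Most of it came from Olig1 and Olig2. Without overlap, 3 of the 7 (Olig2, Cspg4 and Ermn) were higher in GSC than in control NSC, beside 13.9% of all genes. In that comparison 0 of the 7 were lower, beside 3803 of all 18193 genes. Pdgfra was the 1 of 7 lower without overlap in Nf1-/- than in control NSC (-2.87, adjusted p = 0.187), and 0 were higher. Of all 18193 genes, 2558 were lower and 1774 higher without overlap there, so 1 of 7 lower is near the share of all genes. Summed signals of 6 neural stem cell markers overlapped, at 207888 to 270901, 219940 to 258934 and 219463 to 253307. Msi1 fell in GSC against control NSC (-1.12, adjusted p = 0.0337). Those of 5 neuron markers were 3952.8 to 6365.3, 1969.3 to 2426.9 and 2888.6 to 4385.7, with Rbfox3 and Snap25 lower in GSC than in control NSC and Tubb3 higher in GSC than in Nf1-/- NSC (4.36-fold, adjusted p = 0.0344). Dhh, Pou3f1, Cdh19 and Ntrk2 changed in the same comparison as the astrocyte markers. Between GSC and Nf1-/- NSC, Aldh1l1, Aqp4 and Gja1 fell too (adjusted p = 0.00241, 0.0205 and 0.0346). Dhh, Pou3f1, Cdh19 and Ntrk2 did not pass there. The part of cell type in the changes of Dhh, Pou3f1, Cdh19 and Ntrk2 was not tested.

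The genes whose log2 signals followed each member most closely over the 9 arrays, among the brighter 50% of genes, are given by Pearson's r as a description. For Dhh they were Leprot (0.99), Syngr2 (0.98) and Lmcd1 (0.98). For Pou3f1 they were Prkcb (0.97), Pdia5 (0.97) and Spred2 (0.97), and for Pmp22 Selenom (0.99), Rtn4ip1 (0.99) and Dynlt3 (0.98). For the dim members the highest values were lower, at 0.90 for Ngfr (Nid1), 0.86 for Foxd3 (Ate1) and 0.95 for Tfap2a (Klhdc1). The 9 points share 3 groups and a common scaling, and the genes named are those with the highest r, so r is high by choice.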

How the data were processed

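Per the labels' protocols, 100 ng of RNA from each of 9 samples went onto an Affymetrix mouse array. The authors deposited a linear signal intensity per probe set, and the software behind it is not given in the sources. Values became log2(value + 1). Of 45101 probe sets, 64 were controls and 34945 had exactly 1 symbol, and the brightest of these by mean stood for each of 18193 genes. In R 4.3.3, limma 3.58.1 fitted the 3 group means, with 6 residual and 1.63 prior degrees of freedom after moderation, two-sided tests and Benjamini-Hochberg adjustment over all genes. The fit was tested on simulated data. Genes named beside the members are, from each list, up to 4 with the smallest adjusted p past the threshold, plus Sox10, Erbb3, Egr2, Ptch1, Gli1, Ntrk2, Pou3f2 and Pou3f3. Mbp, S100b, Xist, Actb, Shh, Ihh and the olfactory receptors were named after values were seen. The members, lists and rules were chosen with earlier results of these data known. Upstream sequence and positions come from RefSeq tables on GRCm38.p6.

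Whether equal replicate numbers pair arrays was checked by the correlation of deviations from group means over the brighter 50% of genes. It was 0.64, 0.24 and 0.59 between same-numbered NSC arrays, so that pairing comes from these data, not from the labels. It was 0.24, 0.05 and 0.20 between GSC and control NSC and 0.30, 0.12 and 0.11 between GSC and Nf1-/- NSC, which came from other mice. Alternatives were other normalizations, probe set summaries, filters, variance priors, array weights, the replicate block and each array left out. The number of arrays limits the precision.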

Additional observations from a re-analysis of the deposited data

How the results depend on the processing

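With 3 arrays a group, calls near the threshold turned on single arrays. Of 405 member differences under alternatives, 357 kept their direction and side of the threshold, 15 lost a call, 13 gained one and 20 changed sign. All changes of sign were for Ngfr, Foxd3 or Tfap2a. Member calls between GSC and control NSC, 2 as reported, were 0 with the mean of all probe sets and with only the 6 arrays, 1 with the ordinary test, 3 with a mean-variance trend (also with robust moderation, or with the replicate block) and with array weights, and 0 to 2 with each array left out. Between Nf1-/- and control NSC, 0 as reported, 1 member (Pou3f1) was called without the dimmest 25% of genes, with only the brighter 50%, with a mean-variance trend (also with robust moderation, or with the replicate block), and 1 with the brighter 50% and the replicate block together, the last chosen after seeing the data. Between GSC and Nf1-/- NSC there were 0 under all alternatives. The replicate block alone left 0, 2 and 0 members called, but between GSC and control NSC, whose numbers do not pair, it exchanged Dhh (adjusted p = 0.0552) for Pmp22 (0.0324). It changed no other member call. Changes of sign were 0.11 and 0.082 for Ngfr between the NSC groups under quantile normalization and the median shift. For Foxd3 between GSC and Nf1-/- NSC they were 0.0045 under quantile normalization, 0.0089 with a pseudocount of 16 and 0.21 with array weights. With each array left out, differences ran from -0.72 to 0.39 for Ngfr and -1.01 to 0.38 for Foxd3 and -0.070 to 0.13 for Tfap2a between the NSC groups, from -0.15 to 1.19 for Ngfr and -1.02 to 0.37 for Foxd3 between GSC and control NSC, and from -0.62 to 0.46 for Foxd3 between GSC and Nf1-/- NSC. The cause of these changes was not tested. All genes called ran from 0 to 1081, 214 to 3515 and 29 to 1133 in the 3 comparisons, beside 0, 1649 and 319. The alternatives for the other list genes were added after seeing the data.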
